A study of Homo sapiens with 8 samples.

Results

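ELAPOR1, listed in the deposited table under its older symbol KIAA1324, was described together with its paralog ELAPOR2 (listed as KIAA1324L) and 6 other human proteins that carry a mannose-6-phosphate receptor homology domain: M6PR, IGF2R, GNPTG, PRKCSH, OS9 and ERLEC1. The 8 genes were taken by symbol from the 58870 rows of the table, each symbol naming 1 row, and 7 of them were among the 13860 genes with enough counts to be tested. RNA was sequenced from Panc 10.05, a long-established line of human pancreatic ductal adenocarcinoma, in 4 libraries of control cells and 4 libraries of cells that carry an ELAPOR1 transgene. No promoter, vector, clone or culture time was given for either group, and no treatment was named that would set control cells apart from the parent line. The labels do not say that replicates came from separate cultures, so p-values measure the spread between these libraries, which may be technical.

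The mannose-6-phosphate receptor homology domain is a carbohydrate-binding fold first known from the receptors that carry newly made acid hydrolases to lysosomes. GNPTG belongs to the Golgi enzyme that begins the mannose-6-phosphate tag, M6PR and IGF2R are the receptors that read it, and PRKCSH, OS9 and ERLEC1 use their domains on N-glycans in the endoplasmic reticulum. ELAPOR1, first found as an estrogen-induced gene, is a membrane protein of the late secretory and endosome-lysosome system.

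Control libraries held 16558600 to 18128757 counts and ELAPOR1 libraries 13765509 to 17258166 counts. Values are given as counts per 1000000 (CPM) after TMM scaling, and a gene was called where the adjusted p-value of edgeR's quasi-likelihood test was under 0.05. The labelled cell type was matched by its markers: the 6 ductal epithelial markers summed to 11929 to 13196 CPM in control and 11159 to 11510.0 CPM in ELAPOR1 libraries. The sum hides opposite directions. Of the 6, 5 were called, against 44.7% of all tested genes: 3 higher, KRT7 and KRT19 among them, and 2 lower, KRT18 and KRT8. Of 20 markers of other cell types, 3 had more than 10 counts in any library: CD68 with 1095 to 1476 counts, COL1A1 with 41 to 77, and VWF with 8 to 32. PTPRC, which marks all leukocytes, had at most 1 count, and COL1A2, DCN and LUM had none. The summed leukocyte markers, nearly all CD68, were at 82.2 to 88.3 CPM in control and 72.7 to 79.1 CPM in ELAPOR1 libraries, and the summed endothelial markers, mostly VWF with CDH5 at 0, at 1.62 to 2.13 and 0.576 to 0.998 CPM. The part of these shifts in the falls of the members was not tested. In bulk RNA, fewer cells with a transcript and less of it per cell cannot be told apart.

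Of the 7 tested members, 4 were called. ELAPOR1 is among them, but it is the gene that was overexpressed, so its call was set by the design. It also passed the count filter only through the ELAPOR1 libraries. Of the 6 other tested members 3 were called, all lower, against 44.7% of all tested genes called in either direction. ELAPOR1 rose, and GNPTG, PRKCSH and ERLEC1 fell by 11.9 to 22.5%. M6PR, IGF2R and OS9 were not called. Among all tested genes 22.6% were called higher and 22.1% lower, so calls of this kind were common in the whole table. Of the 6 tested members other than ELAPOR1, 3 were separate in CPM between groups (GNPTG, PRKCSH and ERLEC1) and 3 overlapped. Among all tested genes 39.2% were separate. Leaving ELAPOR1 aside, the median log2 fold change of the 6 tested members was -0.13, against 0.000875 over all tested genes, and the median size of their change was 0.13, against 0.175 over all tested genes.

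**Figure D1:**
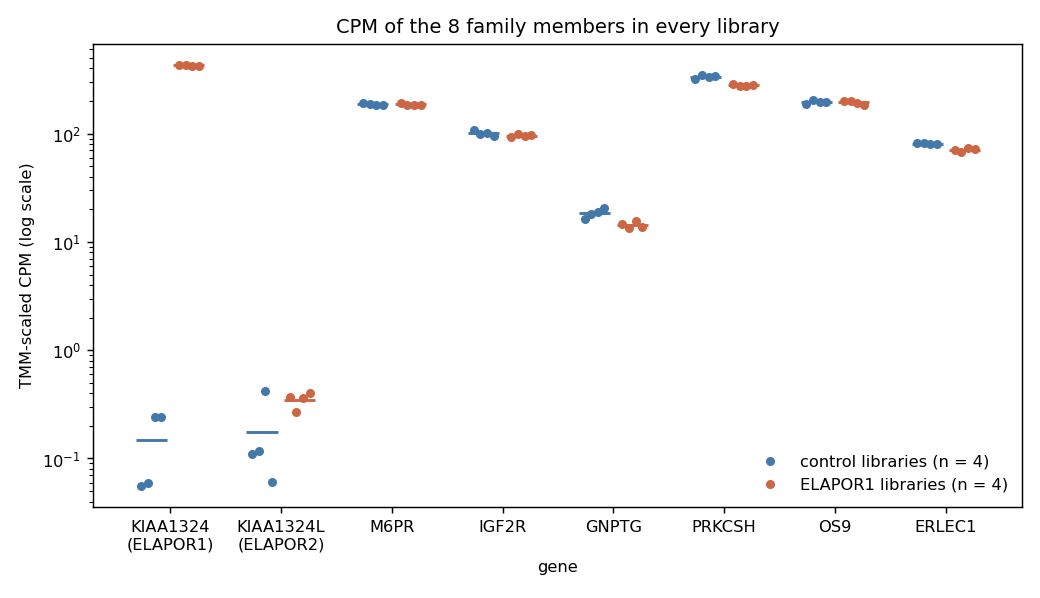
TMM-scaled CPM (log scale) of the 8 members in each of the 4 control and 4 ELAPOR1 libraries; points are libraries and bars are group means. KIAA1324 goes from 0.150 to 427 CPM, whereas the 6 other members with more than 1 CPM show small differences between groups.

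ELAPOR1 (KIAA1324, ENSG00000116299.17) is encoded on chromosome 1 (GRCh38, 109113679 to 109206781, plus strand). Control libraries 1 to 4 held 1, 1, 4 and 4 counts of it. In ELAPOR1 libraries the counts were 7006, 6422, 5910 and 7368, or 430.0, 427, 425 and 425 CPM. The 4 transgene libraries lay close together at 427 ± 2.28 CPM (SD over 4 libraries), and the groups were far apart. From the summed counts, 10 against 26706, the level was 2906-fold higher with a 95% counting interval of 1580.1 to 6061 (exact binomial, counting error only). As a log2 fold change this was 11.43 (adjusted p = 3.5e-43 by edgeR), and 11.15 to 11.75 with 1 library left out. The standard error derived from the F statistic, 0.086, does not describe the spread of a ratio that rests on 10 control counts. A count per gene does not separate the introduced copy from the chromosomal one. The overlapping gene C1orf194, on the opposite strand, had no count in any library.

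The ELAPOR1 transcript became the largest member of the family by CPM. It made up 33.3 to 33.8% of the summed CPM of the 8 genes in ELAPOR1 libraries, against 0.00613 to 0.0266% in control. The other 7 genes together summed to 904.5, 935, 911 and 916.5 CPM in control and to 860.0, 842, 832 and 833 CPM in ELAPOR1 libraries. This sum was lower in every transgene library than in any control library. Among all tested genes, 39.2% were separate in CPM between groups. The members did not share the fall evenly. By mean CPM, PRKCSH went from 335 to 280, ERLEC1 from 80.8 to 71.2, IGF2R from 101 to 95.6 and GNPTG from 18.4 to 14.3. M6PR went from 186 to 187, OS9 from 196 to 194 and KIAA1324L from 0.177 to 0.350.

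ELAPOR2 (KIAA1324L, ENSG00000164659.15, minus strand of chromosome 7, from 86876906 to 87059699) is the paralog of ELAPOR1. It was close to the limit of detection, with 2, 2, 7 and 1 counts in control and 6, 4, 5 and 7 counts in ELAPOR1 libraries. These equal 0.177 ± 0.163 CPM and 0.350 ± 0.0588 CPM (SD over 4 libraries, p by exact permutation = 0.143), and the groups overlapped. The ratio of the summed counts, 22 against 12, was 2.0 with a 95% counting interval of 0.945 to 4.42, so a change was not detectable at this depth. The gene did not pass the count filter. When it was fitted with no filter its log2 fold change was 0.96 (edgeR adjusted p = 0.373). In the transcript sequences of GENCODE release 29 the paralogs shared none of the 9652 different stretches of 50 bases of KIAA1324. Reads of KIAA1324 of that length could therefore be counted for KIAA1324L only through mismatches.

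Levels of different genes were compared as CPM per kilobase of annotated exon. In control libraries PRKCSH was highest at 64.8 ± 2.38, followed by M6PR at 49.3 ± 0.996, OS9 at 37.9 ± 1.2 and ERLEC1 at 31.2 ± 0.539 (SD over 4 libraries). IGF2R at 5.65 ± 0.298 and GNPTG at 4.5 ± 0.45 were far lower, and KIAA1324L at 0.0219 ± 0.0201 and KIAA1324 at 0.0161 ± 0.0115 overlapped each other near 0 (SD over 4 libraries). In ELAPOR1 libraries KIAA1324 reached 45.9 ± 0.245 and stood between M6PR at 49.4 ± 1.28 and OS9 at 37.5 ± 1.46 (SD over 4 libraries). This place rests on the annotated exon length of the chromosomal gene, 9300 bases. The length of the transgene transcript was not given, and a shorter one would place KIAA1324 higher. At these annotated lengths, neighbours in the orders had separate library ranges, apart from the paralogs in control. Placed on the length of the longest transcript instead, KIAA1324 at 71.5 came before M6PR at 67.7 in ELAPOR1 libraries, and in control GNPTG at 7.69 and IGF2R at 7.18 changed places with overlapping ranges.

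GNPTG (ENSG00000090581.10, plus strand of chromosome 16, from 1351923 to 1364113) encodes the gamma subunit of GlcNAc-1-phosphotransferase, the enzyme that starts the mannose-6-phosphate tag. Its CPM was 16.3, 18.0, 18.8 and 20.7 in control and 14.6, 13.4, 15.5 and 13.7 in ELAPOR1 libraries. Every ELAPOR1 library lay below every control library, although the highest of the first and the lowest of the second were close. GNPTG fell by 0.37 in log2 units (standard error 0.085, adjusted p = 5.6e-04 by edgeR), a mean of 18.4 ± 1.84 against 14.3 ± 0.934 CPM (SD over 4 libraries). This was the largest fall of the family.

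GNPTAB, which encodes the catalytic alpha and beta subunits of the same enzyme, moved the other way. It rose from 39.7 ± 1.87 to 48.1 ± 1.56 CPM (SD over 4 libraries), which is 0.28 as log2 fold change (standard error 0.053, adjusted p = 5.5e-05 by edgeR). The ratio of GNPTG to GNPTAB counts within a library does not depend on scaling between libraries. Its log2 was -1.38, -1.10, -1.07 and -0.89 in control and -1.69, -1.83, -1.70 and -1.78 in ELAPOR1 libraries, a difference of -0.64. The groups did not overlap (two-sided p by exact permutation = 0.0286, which is the lowest value possible with 4 against 4 libraries, and 0.0429 adjusted over the 6 ratios examined). Control replicate 1 stood nearest to the ELAPOR1 libraries. NAGPA, the enzyme that uncovers the tag, was at 6.53 ± 0.333 and 5.86 ± 0.743 CPM (SD over 4 libraries) and was not called (log2 fold change -0.15, edgeR adjusted p = 0.353).

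The count of GNPTG has a limit of annotation. Of its different stretches of 50 bases in annotated transcripts, 31% also occur in another gene, most of them in UNKL on the opposite strand, and the use of strand in counting was not stated in the sources used here. UNKL rose from 20.1 ± 1.34 to 24.6 ± 2.13 CPM (SD over 4 libraries), a log2 fold change of 0.28 (edgeR adjusted p = 2.1e-03), opposite in sign to GNPTG. How far reads of either gene entered the count of the other was not tested.

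The promoter windows of GNPTG and IGF2R are shown because they are the ones of the 8 members that hold TCACGTGA, the E-box core of the CLEAR element bound by TFEB and related factors. All 8 members had a window in the RefSeq table (GRCh38.p14, 250 bases before to 50 after each annotated start). The motif, which reads the same on both strands, was found in 0.98% of all 35116 windows. Capitals mark it in the stretch from 200 bases before the start to 20 bases from it, on the plus strand, chr16:1351731-1351950 for GNPTG and chr6:159968882-159969101 for IGF2R.
GNPTG: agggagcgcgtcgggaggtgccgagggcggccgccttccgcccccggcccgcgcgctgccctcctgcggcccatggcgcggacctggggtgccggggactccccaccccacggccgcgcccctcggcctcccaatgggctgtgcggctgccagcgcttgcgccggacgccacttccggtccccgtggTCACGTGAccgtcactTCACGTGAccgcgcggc
IGF2R: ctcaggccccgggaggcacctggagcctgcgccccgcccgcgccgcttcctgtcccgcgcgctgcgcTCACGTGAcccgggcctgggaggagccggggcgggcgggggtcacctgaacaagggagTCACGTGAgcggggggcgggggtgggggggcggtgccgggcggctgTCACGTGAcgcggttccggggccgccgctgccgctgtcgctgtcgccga
GNPTG had 2 matches and IGF2R 3. GNPTG was called lower and IGF2R was not called. This is 1 of 2 genes, beside 44.7% of all tested genes called and 22.1% called lower, and the part of the motif was not tested. The endoplasmic reticulum stress element (CCAAT, 9 bases of any kind, CCACG) and its second form (ATTGG, 1 base of any kind, CCACG) were searched on both strands and were in no member's window (0.0769% and 0.0541% of all windows).

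The receptors that read the tag did not pass the test. M6PR (ENSG00000003056.8, minus strand of chromosome 12, from 8940363 to 8949955) is the smaller, cation-dependent receptor, and was at 191, 186, 182 and 186 CPM in control and 194, 185, 183 and 185 CPM in ELAPOR1 libraries. The groups overlapped throughout. Its log2 fold change was 0.0037 (95% interval -0.062 to 0.069, edgeR adjusted p = 0.938). M6PR shares 25.5% of its stretches of 50 bases with PHC1 on the opposite strand, and PHC1 fell from 25.5 ± 1.40 to 15.9 ± 1.92 CPM (SD over 4 libraries, log2 fold change -0.68, edgeR adjusted p = 9.1e-09). The part of these shared reads in the count of M6PR was not tested.

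IGF2R (ENSG00000197081.13, plus strand of chromosome 6, from 159969099 to 160113507) is the large, cation-independent receptor, which also binds insulin-like growth factor 2. It was at 108, 98.4, 101 and 95.6 CPM in control and 92.5, 98.6, 94.8 and 96.6 CPM in ELAPOR1 libraries, with overlap between groups and control replicate 1 highest. Its log2 fold change was -0.077 (95% interval -0.16 to 0.0068, edgeR adjusted p = 0.131). The call depends on the handling of the counts: once trends with GC content and gene length had been taken out, IGF2R was called lower at -0.13 (edgeR adjusted p = 2.8e-03), and without control replicate 4 it was at -0.10 (edgeR adjusted p = 0.0413). IGF2R stood to M6PR at a log2 ratio of -0.89 ± 0.062 in control libraries and -0.96 ± 0.070 with the transgene (SD over 4 libraries), a difference of -0.078 (p by exact permutation = 0.2, 0.24 adjusted over the 6 ratios).

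**Figure D2:**
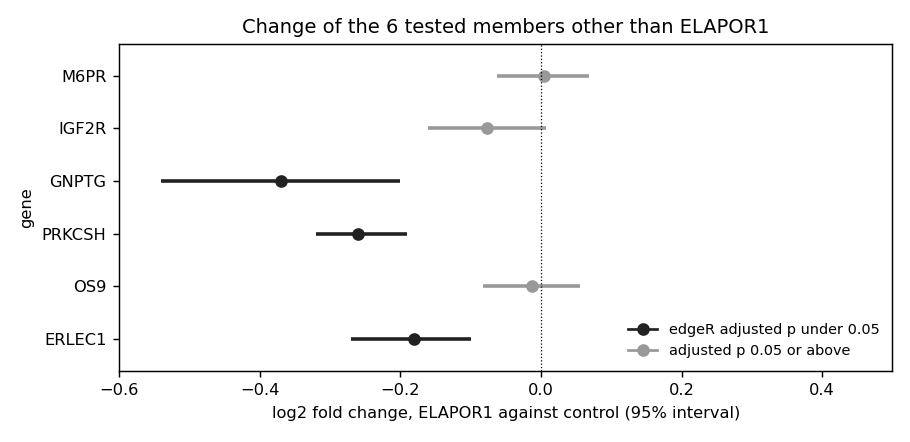
log2 fold change of ELAPOR1 against control libraries for the 6 tested members other than ELAPOR1 itself, with 95% intervals from the edgeR fit (4 libraries a group). GNPTG, PRKCSH and ERLEC1 lie below 0, and the intervals of M6PR, IGF2R and OS9 include 0.

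PRKCSH (ENSG00000130175.9, plus strand of chromosome 19, from 11435288 to 11450968) encodes the beta subunit of glucosidase II, which trims glucose from new N-glycans so that they can enter and leave the calnexin cycle. It had 318, 347, 335 and 339 CPM in control and 289, 276, 274 and 281 CPM in ELAPOR1 libraries. The groups were separate, the lowest control at 318 and the highest ELAPOR1 library at 289 CPM. PRKCSH fell by 0.26 in log2 units (standard error 0.031, adjusted p = 2.4e-08 by edgeR). GANAB, the catalytic alpha subunit of the same enzyme, was at 618 ± 11.7 and 622 ± 3.58 CPM (SD over 4 libraries), with a log2 fold change of 0.0088 (95% interval -0.046 to 0.063, edgeR adjusted p = 0.821). The log2 ratio of PRKCSH to GANAB was -0.99, -0.84, -0.88 and -0.83 in control and -1.12, -1.17, -1.17 and -1.15 in ELAPOR1 libraries. The difference of -0.27 separated the groups (p by exact permutation = 0.0286, 0.0429 adjusted over the 6 ratios). The 5 nearest tested genes on each side of PRKCSH had a median log2 fold change of -0.23, with 4 of 10 called lower and 1 called higher, against 22.1% and 22.6% of all tested genes. The part of this neighbourhood in the fall of PRKCSH was not tested.

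OS9 and ERLEC1 are lectins of the endoplasmic reticulum that bring misfolded glycoproteins to the SEL1L and SYVN1 ubiquitin ligase complex. OS9 (ENSG00000135506.16, plus strand of chromosome 12, from 57693955 to 57721557) was at 189, 204, 194 and 196 CPM in control and at 199.55, 201, 191 and 185 CPM in ELAPOR1 libraries. The groups overlapped, and the log2 fold change was -0.013 (95% interval -0.083 to 0.056, edgeR adjusted p = 0.785). OS9 shares 10.2% of its stretches of 50 bases with an antisense transcript.

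ERLEC1 (ENSG00000068912.14, plus strand of chromosome 2, from 53787044 to 53818819) was at 82.5, 81.3, 79.5 and 79.7 CPM in control and at 70.6, 68.4, 74.1 and 71.6 CPM in ELAPOR1 libraries. All 4 transgene libraries lay below all controls. ERLEC1 fell by 0.18 in log2 units (standard error 0.042, adjusted p = 5.0e-04 by edgeR), from 80.8 ± 1.40 to 71.2 ± 2.38 CPM (SD over 4 libraries). The 10 nearest tested genes, spread over 7.18 Mb, had a median of 0.19 in log2 units. Of these, 4 were called higher and 0 lower, against 22.6% and 22.1% of all tested genes. EML6 at -0.26 (edgeR adjusted p = 0.062) and the overlapping ASB3 at -0.09 (adjusted p = 0.41) were below 0 without being called.

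The OS9 and ERLEC1 lectins differed from each other in their response. The log2 ratio of OS9 to ERLEC1 was 1.20, 1.33, 1.29 and 1.30 in control and 1.5, 1.55, 1.36 and 1.37 in ELAPOR1 libraries, a difference of 0.17 with no overlap (p by exact permutation = 0.0286, 0.0429 adjusted over the 6 ratios). SEL1L, the adaptor that both lectins bind, was at 143 ± 7.02 and 142 ± 2.43 CPM (SD over 4 libraries, log2 fold change -0.0061, edgeR adjusted p = 0.91). The log2 ratio of ERLEC1 to SEL1L went from -0.82 ± 0.047 to -1.0 ± 0.026 (SD over 4 libraries, difference -0.18, p by exact permutation = 0.0286, 0.0429 adjusted). That of OS9 to SEL1L was 0.46 ± 0.10 and 0.45 ± 0.073 (SD over 4 libraries, difference -0.0094, p by exact permutation = 0.886, 0.886 adjusted).

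**Figure D3:**
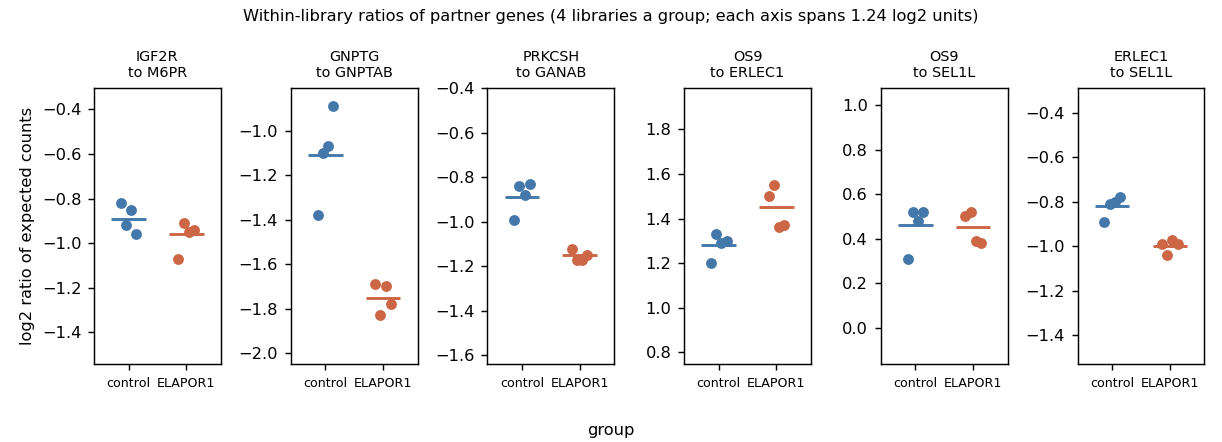
log2 ratio of the expected counts of 6 gene pairs in each library (points, 4 a group; bars are means), with axes of equal span. The groups are separate for GNPTG to GNPTAB, PRKCSH to GANAB, OS9 to ERLEC1 and ERLEC1 to SEL1L, and overlap for IGF2R to M6PR and OS9 to SEL1L. Each separate ratio holds a member that was called by itself, so it is not independent of that call. In CPM, 39.2% of all tested genes were separate, and the share among other gene pairs was not worked out.

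The genes that work with the family were described with 6 lists, which were drawn up with earlier results of these data known. Their shares called were not compared with genes of similar count level, and genes with more counts can be called at smaller changes. Of 22 genes for tag synthesis and for sorting of the receptors, all were tested and 13 were called, 10 higher and 3 lower (median 0.06 in log2 units), which is 59.1% called against 44.7% of all tested genes (22.6% higher, 22.1% lower). Adaptor complex 1, which packs the receptors into clathrin coats, changed in both directions: AP1S2 rose by 0.40 (edgeR adjusted p = 7.7e-06) and AP1G1 by 0.34 (adjusted p = 6.4e-10), whereas the epithelial subunit AP1M2 fell by 0.36 (adjusted p = 7.0e-07) and AP1S1 fell by 0.19 (adjusted p = 9.1e-05).

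The transcripts that encode the cargo of the receptors were mostly lower. Of 39 acid hydrolases and activators that carry the tag, all were tested and 28 were called, 24 lower and 4 higher. Their median was -0.20 in log2 units, beside 0.000875 over all tested genes, of which 44.7% were called (22.1% lower, 22.6% higher). The 2 largest falls were in genes with few counts: HYAL1, a hyaluronidase, fell from 1.23 ± 0.388 to 0.315 ± 0.0909 CPM (log2 fold change -1.91, edgeR adjusted p = 1.7e-04), and CTSF, a cathepsin, from 0.850 ± 0.0893 to 0.367 ± 0.130 CPM (log2 fold change -1.19, adjusted p = 0.0154, SD over 4 libraries). GALNS, a sulfatase, rose by 0.29 (edgeR adjusted p = 0.0123) and CTSC, a dipeptidyl peptidase, by 0.20 (adjusted p = 4.0e-05). Of the 27 hydrolase genes with a RefSeq window, 3 held TCACGTGA (11.1% of genes, beside 0.98% of all windows): CTSA and GAA, which fell, and GALNS, which rose. A gene can have several windows, so these shares differ in unit. The part of the motif in these changes was not tested.

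Around PRKCSH, 7 of the 11 genes of glucosidases and the calnexin cycle were called (63.6%, against 44.7% of all tested genes), 3 higher and 4 lower, with a median log2 fold change of 0.01. MLEC, a lectin for glucosylated glycans, and SELENOF, a partner of the folding sensor UGGT1, each rose by 0.17 (edgeR adjusted p = 3.2e-05 and 4.4e-05). UGGT2, a second sensor, fell by 0.31 (adjusted p = 3.0e-03) and PPIB, a prolyl isomerase, fell by 0.26 (adjusted p = 2.4e-08). Of 10 genes of polycystic liver disease, in which PRKCSH itself is mutated, 9 were tested and 5 were called, 1 higher and 4 lower (median -0.06), a share of 55.6% that is near the 44.7% of all tested genes. PKD1 rose by 0.18 (edgeR adjusted p = 0.0418), SEC61B fell by 0.22 (adjusted p = 2.6e-04) and ALG9 fell by 0.19 (adjusted p = 0.0311).

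Around OS9 and ERLEC1, 19 of the 24 genes of degradation through SEL1L were called (79.2%, against 44.7% of all tested genes), 9 higher and 10 lower, with a median log2 fold change of -0.05. EDEM3, a mannosidase that marks glycoproteins for degradation, rose by 0.42 (edgeR adjusted p = 1.9e-07) and FOXRED2, a reductase found with SEL1L and OS9, by 0.40 (adjusted p = 2.4e-04). DERL3 of the export channel fell by 0.56 (adjusted p = 1.2e-04), and HSP90B1, a chaperone that binds OS9, fell by 0.41 (adjusted p = 2.8e-15), from 1278 ± 9.16 to 961 ± 7.07 CPM (SD over 4 libraries). Within this list the endoplasmic reticulum stress element was found in the windows of HSPA5 and HSP90B1, both called lower, and its second form in those of HERPUD1, called lower, and SDF2L1, not called. In the calnexin list the first form was in the windows of CALR, called lower, and CANX, not called. The forms were in 0.0769% and 0.0541% of all windows, and 22.1% of all tested genes were called lower. The part of either form in these falls was not tested.

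The ligand of IGF2R was barely present. IGF2 had at most 7 counts in any library and IGF1 none, and of the 12 genes of the insulin-like growth factor axis 6 were tested, of which 3 were called (median -0.02), or 50% against 44.7% of all tested genes. IGFBP6, a binding protein with preference for IGF2, fell from 97.4 ± 7.15 to 65.0 ± 4.80 CPM (SD over 4 libraries, log2 fold change -0.58, edgeR adjusted p = 1.4e-09). INSR fell by 0.25 (adjusted p = 0.0133), and IGFBP4 rose by 0.82 (adjusted p = 0.0261) from a mean of 0.966 CPM.

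**Figure D4:**
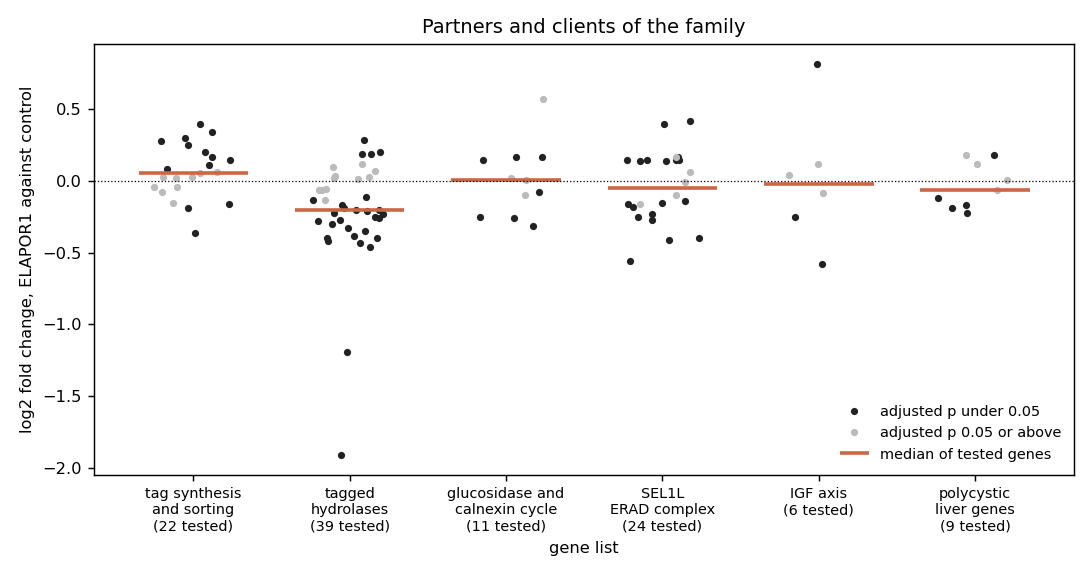
log2 fold change of ELAPOR1 against control libraries for the tested genes of the 6 lists; points are genes, dark where the edgeR adjusted p-value is under 0.05, and bars are list medians. The tagged hydrolases lie mostly below 0 with a median of -0.20, and the other 5 medians lie between -0.06 and 0.06.

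Genes with the most similar profile over the 8 libraries were found by the root-mean-square difference of centred log2(CPM + 1). No gene came near KIAA1324, with C6orf223 at 3.4 and PTPRB at 3.5 log2 units among the 3 nearest profiles. The nearest profile to GNPTG was ANKRD10 at 0.040 log2 units, to PRKCSH the splicing factor SF3B6 at 0.016, and to ERLEC1 MTA3 at 0.018. The clathrin adaptor gene AP2A1 was nearest to M6PR at 0.015, ZNF217 to IGF2R at 0.023 and MED22 to OS9 at 0.025.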

How the data were processed

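The members and gene lists were chosen with earlier results of these data known. The authors deposited 1 table of expected counts per gene for 8 libraries, unscaled. Per the submitters' processing notes, cutadapt, STAR, RSEM, DESeq2 and hg38 were used; versions, annotation and use of strand were not given in the sources used here. All 64 member values were whole numbers, whereas 15% of nonzero values in the table were not. Counts were rounded and fitted with edgeR 4.0.16 in R 4.3.3: filterByExpr, TMM, robust quasi-likelihood test, two-sided, no covariate, Benjamini-Hochberg adjustment over 13860 genes; the SE is the log2 fold change divided by the square root of F. Single values were compared by two-sided exact permutation over libraries. Positions and lengths are from GENCODE release 29 on GRCh38. Named genes were the 8 members, GANAB, SEL1L and GNPTAB, the 2 largest called rises and falls of each list, and the most similar profiles among genes of mean at least 5 CPM, of which 1 is not reported here; NAGPA, UNKL, PHC1, CTSA, GAA, EML6, ASB3 and the genes with a stress element were named after their values were seen. Alternatives were other scalings, DESeq2 1.42.0, limma-voom (limma 3.58.1), other filters, a replicate block, each library left out, KIAA1324 left out, GC and length trends removed, and a test against a 1.5-fold change.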

Additional observations from a re-analysis of the deposited data

Results flagged for a closer look

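In 30 groups of 4 libraries (the CPM of each member, the 6 ratios and the library totals), 2 held 1 library far from the other 3 by Dixon's test at the 95% level. Chance gives about 1 in 20 such groups, or 1.5 here. KIAA1324L was at 0.420 CPM in control replicate 3, which is 7 counts, and at 0.0610 to 0.118 CPM in the other controls. The log2 ratio of OS9 to SEL1L was 0.309 in control replicate 1 and 0.48 to 0.52 in the other controls.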

How the results depend on the processing

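ELAPOR1 was called higher under the 17 alternatives that held it, an outcome set by the design because it is the overexpressed gene. GNPTG, PRKCSH and ERLEC1 were called lower under 18 of 19. The exception was the test against a 1.5-fold change, where they stay at -0.37, -0.26 and -0.18 with an adjusted p of 1. Elsewhere their adjusted p-values were at most 4.0e-03, 2.3e-06 and 4.4e-03. The 1.5-fold test called 1 member, ELAPOR1 itself, 1 tagged hydrolase and 0 genes of each of the other 5 lists (1.55% of all genes). IGF2R was called at -0.13 with GC and length trends removed. M6PR and OS9, never called, changed sign: M6PR was at -0.0045 with upper-quartile scaling and -0.015 with those trends removed, and OS9 at 0.0081 with total count scaling. DESeq2 called 3 polycystic liver genes instead of 5. Ranks by longest transcript were 2 for KIAA1324 and 3 for M6PR in ELAPOR1 libraries, and 6 for IGF2R and 5 for GNPTG in control. The cause of these differences was not tested.

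With 1 library left out, log2 fold changes ranged from 11.15 to 11.75 for ELAPOR1, -0.015 to 0.014 for M6PR, -0.10 to -0.047 for IGF2R, -0.43 to -0.31 for GNPTG, -0.29 to -0.24 for PRKCSH, -0.036 to 0.011 for OS9 and -0.20 to -0.16 for ERLEC1. From 4 to 5 members were called, always with the overexpressed ELAPOR1 among them, the fifth being IGF2R without control replicate 4. Called genes ranged from 12 to 13 (sorting), 21 to 26 (hydrolases), 6 to 8 (calnexin), 18 to 20 (SEL1L), 2 to 3 (growth factors) and 3 to 5 (polycystic liver, 3 without control replicate 3 or ELAPOR1 replicate 4). Ratio differences ranged from -0.73 to -0.57 for GNPTG to GNPTAB, -0.30 to -0.25 for PRKCSH to GANAB, 0.13 to 0.20 for OS9 to ERLEC1, -0.20 to -0.16 for ERLEC1 to SEL1L, -0.10 to -0.044 for IGF2R to M6PR and -0.059 to 0.014 for OS9 to SEL1L.

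Same-numbered libraries did not deviate together over all tested genes (r from -0.0213 to 0.0326), so no pairing by number was seen. Such a correlation cannot exclude that same-numbered libraries were prepared together, and the labels do not say. The replicate block gave 4 called members, ELAPOR1 included, and 5926 called genes against 6193, with GNPTG at -0.37.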

Other observations

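Of the 5 nearest tested genes on each side of the members, 4 are given here, singled out after their values were seen. ARHGEF25, beside OS9, had 12, 11, 15 and 14 counts in control and 0, 3, 0 and 0 counts in ELAPOR1 libraries (edgeR adjusted p = 2.7e-05), while OS9 overlapped between groups. CLCN7, which encodes the chloride-proton exchanger of lysosomes and lies beside GNPTG, fell from 54.1 ± 2.54 to 38.1 ± 2.67 CPM (SD, n = 4 each, log2 fold change -0.51, edgeR adjusted p = 2.4e-09). The median over the 10 neighbours of GNPTG was -0.02, with 3 called higher and 3 called lower, against 22.6% and 22.1% of all tested genes.

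Beside KIAA1324, 5 of 10 neighbours were called lower and 1 higher, against 22.1% and 22.6% of all tested genes. Among these neighbours SARS, a cytosolic seryl-tRNA synthetase, fell from 119 ± 4.95 to 88.5 ± 3.43 CPM (SD, n = 4 each, log2 fold change -0.42, edgeR adjusted p = 1.4e-10). SORT1, the sorting receptor that can carry hydrolases without the mannose-6-phosphate tag, is also a neighbour and was not called (log2 fold change -0.11, 95% interval -0.22 to -0.0018, adjusted p = 0.0921).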
